A study of Homo sapiens with 12 samples.

Results

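The RNA captured with biotinylated proteins from H2B-APEX2 cells was compared with the total RNA of the same cells, gene by gene. The cells were HEK293 T-REx, an established human embryonic kidney line in which an added transgene is switched on by doxycycline. In the H2B-APEX2 line the transgene is V5-tagged histone H2B fused to APEX2, an engineered peroxidase that tags nearby proteins with biotin-phenol, here on chromatin. The transgene was induced for 16 h while 4-thiouridine was fed to the cells, biotin-phenol was added for 30 min before a peroxide pulse, and ultraviolet light crosslinked RNA to protein. Afterwards biotinylated proteins with their crosslinked RNA were taken up on streptavidin. Genes were kept where the mean of the bound and total RPKM (reads scaled to the listed gene length and to the library total) was at least 1, which left 5143 of 57773 genes. The first gene inside that limit was APH1A, with an RPKM of 0.781 in bound RNA and 1.22 in total RNA, and the first outside it was IER3IP1, with 1.41 and 0.586 in the same order. Of the 5143 genes, 2890 had an RPKM of at least 1 in both libraries, 1757 in bound RNA only and 496 in total RNA only. A gene that passed through 1 library alone tends to differ for that reason, so the counts below describe the genes that passed and no more. A gene kept with an RPKM below 1 in total RNA could not come out at least 2-fold lower in bound RNA. Likewise, a gene kept with one below 1 in bound RNA could not come out at least 2-fold higher. The other 3 lines serve here as a setting for these values: V5-APEX2-NES, with the enzyme sent to the cytoplasm by a nuclear export signal, Connexin43-EGFP-APEX2, with the enzyme at cell contacts, and the T-REx line without APEX2 as the negative control. All were given the same labelling, and each kind of library was made once per line, so that no value below has a replicate check and no p-value is given.

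Histone H2B is a core protein of the nucleosome, so an enzyme fused to it labels proteins of chromatin and of the surrounding nuclear space. RNA there includes transcripts still being made, spliced RNAs that have not been exported, noncoding RNAs that stay in the nucleus, and the small RNAs of the spliceosome and the nucleolus. Messenger RNAs of ribosomal proteins and of respiratory chain subunits are, by contrast, known as stable and abundant transcripts of the cytoplasm.

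The bound library held 16529730 reads on listed genes and the total library 33672152. Total RNA libraries were depleted of ribosomal RNA and bound libraries were not, so that this step and the capture cannot be told apart. The bound library also stood apart from the 7 other RNA libraries of the 4 lines. Only 50.8% of its read values above 0 were whole numbers, against 74.8% in H2B-APEX2 total RNA and 73.8% to 78.9% in the others. It had 0 reads on the 37 genes of the mitochondrial chromosome, against 146759 reads on 23 of them in total RNA. Pseudogenes took 26.7% of its reads, against 5.75% in total RNA, and protein-coding genes took 60.1%, against 12.5%. RNAs of the 7SL family, the RNA of the signal recognition particle, took 1.64% of bound reads and 56.3% of total reads. In bound RNA of the other lines protein-coding genes took 31.9% to 35.7% of reads. Genes of the mitochondrial chromosome took 10058428 of 22952389 reads in bound RNA of the negative control. RPKM is scaled to the library total, so bound RPKM of different lines also carry these differences in composition. In H2B-APEX2 the median gene lay 0.71 higher in bound RNA on the log2(RPKM + 1) scale. Every difference given here is bound minus total RNA relative to that median. The counting standard error (SE) beside it covers the sampling of reads only. Among the genes of kidney-derived HEK293 cells, STMN1 had an RPKM of 27.7 in bound RNA and 11.4 in total RNA, while NEFM and PAX2 were near 0 in both. VIM, the intermediate filament protein vimentin, had 6.6 in bound RNA and 13.5 in total RNA, at -1.64 relative to the median gene. Its bound RPKM was 39.1 in APEX2-NES, 26.5 in Connexin43-APEX2 and 56.5 in the negative control. Of 17 markers of other cell types 3 passed the filter, with a summed RPKM of 25.1 in bound RNA and 40.0 in total RNA. HBB and INS were at 0 in both libraries. The alpha globin gene HBA1 had 0.908 in bound RNA and 18.0 in total RNA, and the epithelial gene EPCAM had 23.4 and 5.58 in the same order.

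In bound RNA, 964 of the 5143 genes (18.7%) were at least 2-fold higher than in total RNA and 1707 (33.2%) at least 2-fold lower, which are the meanings of higher and lower from here on. In such bulk RNA, more cells that hold a transcript and more of it per cell cannot be told apart. Without the median taken off, the split was 2194 higher (42.7%) and 1222 lower (23.8%). Among 2963 protein-coding genes, 492 (16.6%) were higher and 720 (24.3%) lower, with a median of 0.18. Long intergenic noncoding RNAs had 37 of 103 higher and 12 lower, and antisense transcripts 18 of 60 higher and 7 lower. Processed pseudogenes had 253 of 1214 higher and 598 lower. Small nuclear RNAs had 1 of 72 higher and 62 lower, small nucleolar RNAs 1 of 42 higher and 37 lower, and the class of other small RNAs that holds 7SL and 7SK copies 8 of 180 higher and 149 lower. The 35 tested genes of the ribosomal RNA type had 30 higher and 0 lower, with a median of 2.21, beside 5.35 in APEX2-NES, 4.69 in Connexin43-APEX2 and 3.47 in the negative control. The ribosomal RNA depletion of the total libraries applies to these genes directly.

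**Figure D1:**
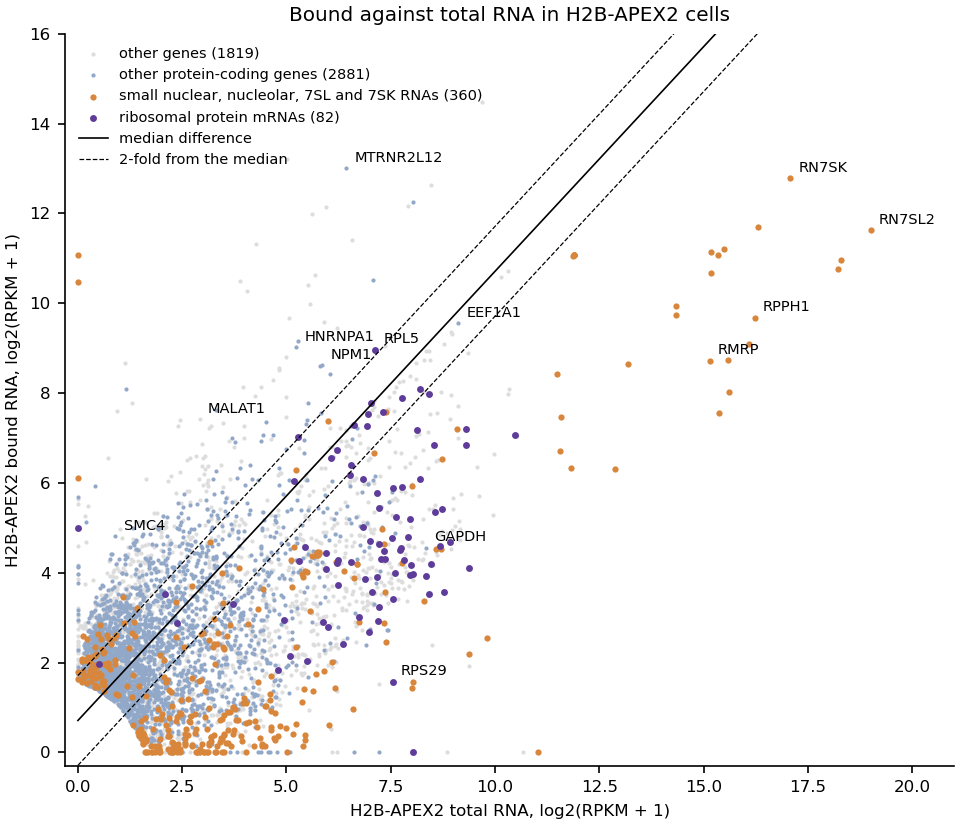
Each point is a gene, with its level in H2B-APEX2 bound RNA on the vertical axis and in total RNA on the horizontal axis, both as log2(RPKM + 1); the solid line is the median difference and the dashed lines are 2-fold from it. MALAT1, HNRNPA1, SMC4 and NPM1 lie above the band, ribosomal protein mRNAs mostly below it, and 7SK, RNase P, RNase MRP and 7SL RNAs far to the right of it.

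Among protein-coding genes the bound RNA was richest, relative to total RNA, in transcripts of nuclear and chromosomal proteins. HNRNPA1 encodes a heterogeneous nuclear ribonucleoprotein (hnRNP) that binds pre-mRNA and acts in splicing and export; it lies on chromosome 12 from 54673977 to 54680872 (hg19, plus strand). Its RPKM was 518 in bound RNA against 36.7 in total RNA, a log2 difference of 3.07 (SE 0.02). Bound RNA of the other lines held 57.5 in APEX2-NES, 76.6 in Connexin43-APEX2 and 39.6 in the negative control, while their total RNA held 37.7 to 51.9. The H2B-APEX2 bound library thus held several times the HNRNPA1 level of any other library, while total RNA of the 4 lines lay between 36.7 and 51.9. HNRNPA1 has near-identical copies in the genome, and its paralog HNRNPA1L2 (3.17) may share its reads. Of 24 tested hnRNP mRNAs, out of 26 listed, 14 were higher and 1, RALY at -1.47, was lower, with a median of 1.43. RALY, like the other members that are named only to account for a small count, was named after its value was seen. HNRNPA2B1 was at 2.57 (RPKM 126 in bound RNA against 12 in total RNA), and HNRNPA3 at 2.49 (53.0 against 4.84).

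Members of the SMC family, which form the ring-shaped condensin and cohesin complexes that fold and hold chromosomes, stood out as well. SMC4, a condensin subunit on chromosome 3 from 160117062 to 160152750 (hg19, plus strand), had a bound RPKM of 27.1 against 0.859 in total RNA, at 3.20 (SE 0.04). In the other lines its bound RPKM was 2.53 in APEX2-NES, 2.09 in Connexin43-APEX2 and 2.77 in the negative control. SMC1A, a cohesin subunit, was at 2.63, with 24.4 in bound RNA against 1.49 in total RNA, and NCAPG, of condensin, at 1.37. Of 14 tested condensin, cohesin and CTCF mRNAs, out of 20 listed, 9 were higher and 0 lower, and the median was 1.35. CTCF itself did not reach the level filter. Chromatin regulator mRNAs had 10 of 20 tested members higher and 0 lower, of 52 listed, with a median of 0.97. CBX3, a heterochromatin protein, was at 1.64 and SMARCC1, a core subunit of SWI/SNF remodelling complexes, at 1.46, whereas TRIM28, a corepressor of zinc finger repressors, was at -0.97. C2H2 zinc finger mRNAs, of which only 22 of 554 listed were tested, had 5 higher and 0 lower: ZNF644 at 2.12, ZNF664 at 1.97, ZNF91 at 1.63, ZNF703 at 1.37 and ZNF146 at 1.31. That share is near the 18.7% of all genes that were higher. The summed total RPKM was 9.12 over the 14 condensin, cohesin and CTCF mRNAs. It was 18.6 over the 20 chromatin regulators and 13.5 over the 22 zinc finger mRNAs. Members below 1 in total RNA passed only through bound RNA and could not be called lower. The counts of 0 lower in these lists are therefore partly set by the filter.

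Both lists of splicing genes lay on the same side. SR proteins are splicing activators, and several of their genes produce transcripts with detained introns, which are spliced slowly and wait in the nucleus. SR protein mRNAs had 6 of 14 tested members higher and 0 lower, with a median of 0.85, and transcripts known for detained introns had 9 of 18 higher and 0 lower, with a median of 0.96 and a range from 0.38 to 2.11. The lists share members, so their counts are not separate evidence. SRSF1 was at 1.70 (23.8 against 3.63), SRSF6 at 1.38 (13.3 against 2.35) and SRSF9 at 0.11 (11.8 against 6.24). HNRNPH1, another transcript with a detained intron, had an RPKM of 16.0 in bound RNA against 2.53 in total RNA, at 1.55, and 949 of its 2448 footprint reads in H2B-APEX2 cells lay in introns. In APEX2-NES, Connexin43-APEX2 and the negative control HNRNPH1 was at -0.03, 0.21 and -0.22.

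Other proteins of chromatin and the nucleolus followed. NPM1, which encodes nucleophosmin, an abundant nucleolar chaperone of histones and ribosomal proteins, lies on chromosome 5 from 170814120 to 170838141 (hg19, plus strand). It had a bound RPKM of 391 against 56.8 in total RNA, at 2.05 (SE 0.02), while bound RNA of the other lines held 35.4 to 49.5 and their total RNA 43.1 to 62.1. The high level was found in the H2B-APEX2 bound library alone among the 8 libraries, which differ in composition. Nucleolar protein mRNAs had 8 of 15 tested members higher and 2 lower, of 26 listed, with a median of 1.14. FBL, the methyltransferase of box C/D particles, was at -0.66 and NHP2, a protein of box H/ACA particles, at -1.18; NOP10, of the same particles, was the other lower member at -2.70. High mobility group proteins bind and bend DNA or bind nucleosomes, and 6 of 8 tested mRNAs were higher and 1 lower, with a median of 1.14. HMGB1 (1.95) and HMGB2 (2.45), named after their values were seen, were higher, HMGN3 was at 1.02 and HMGN2 at -0.31, and HMGA1 was lower at -1.82. HMGN3 had a bound RPKM of 65.5 against 18.9 in total RNA, whereas in every other line bound RNA lay below total RNA, at 6.91 against 19.2 in APEX2-NES, 3.43 against 9.11 in Connexin43-APEX2 and 8.65 against 18.4 in the negative control.

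The highest protein-coding genes by the naming rule were not all nuclear in function. SSB, the La protein that binds new RNA polymerase III transcripts, was at 2.96 (30.9 against 1.51), ARHGAP5 at 2.90 (20.4 against 0.745) and MAN1A2, a Golgi mannosidase, at 2.87 (20.2 against 0.768). Chaperone mRNAs had 10 of 20 tested members higher and 1 lower, with a median of 0.96; HSPD1, the mitochondrial chaperonin, was at 2.12 (162 against 21.9), HSP90AA1 at 0.84 and HSP90AB1 at 0.52, and HSPB1, a small heat shock protein, was the lower one at -1.57. The secretory pathway list, which is not nuclear either, had 4 of 32 members higher and 14 lower, yet its most abundant members CANX, an endoplasmic reticulum chaperone, and HSP90B1, the HSP90 protein of that compartment, were at 1.66 and 1.74. SEC63, of the translocon, at 2.06 and PDIA3, a protein disulfide isomerase, at 1.12 were the other two that were higher, and DDOST, of the oligosaccharyltransferase, was at -1.27.

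**Figure D2:**
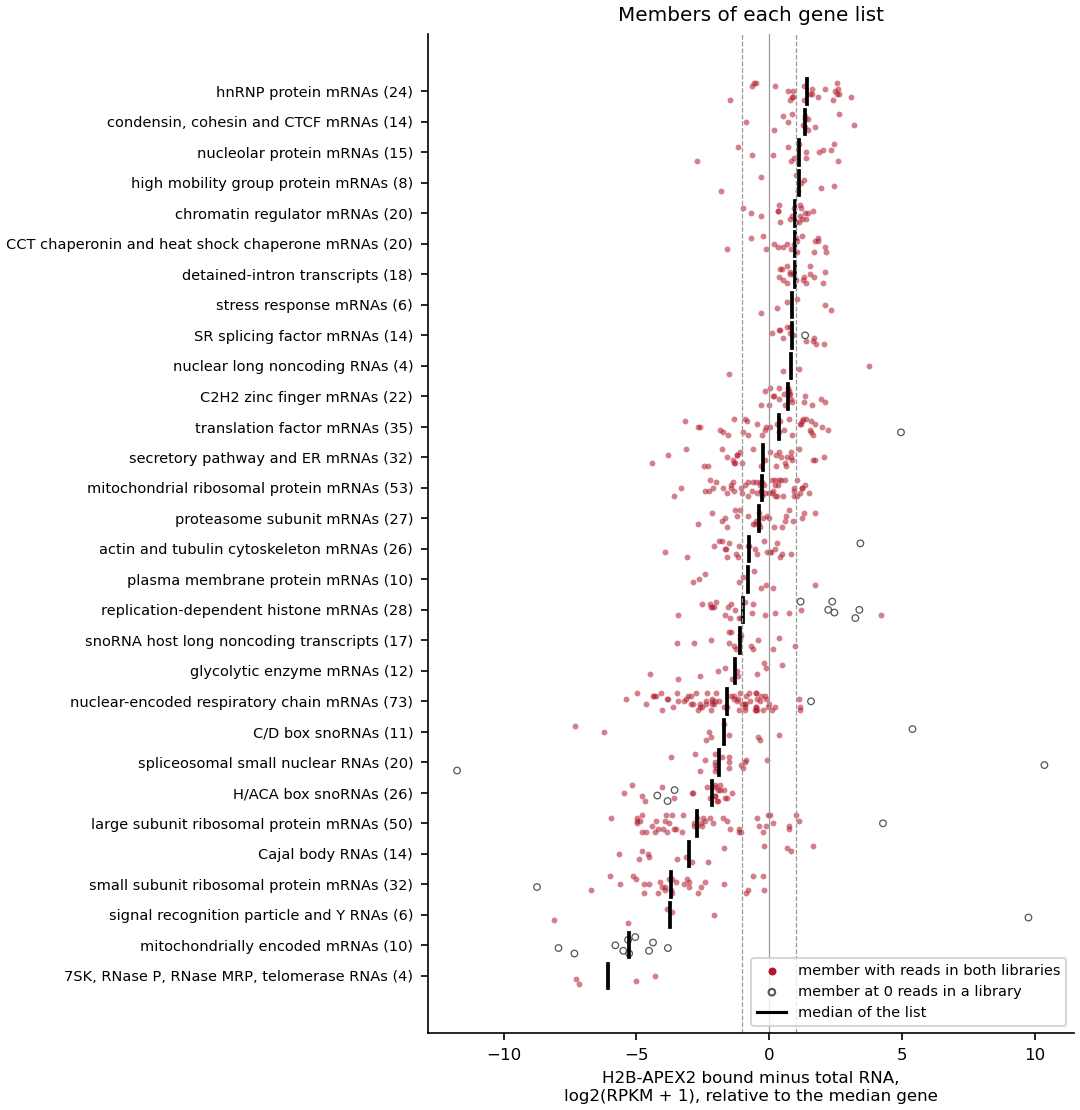
Each filled point is a tested member of a gene list, placed by bound minus total RNA in H2B-APEX2 cells (log2 scale, relative to the median gene); open points had 0 reads in a library, bars are list medians, the number tested stands in brackets and dashed lines mark 2-fold. Medians run from 1.43 for hnRNP protein mRNAs to -6.07 for the 7SK, RNase P, RNase MRP and telomerase RNAs.

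Ribosomal protein mRNAs were the largest group of low protein-coding genes. Their genes belong to the TOP class, whose transcripts start with a C followed by a run of pyrimidines that controls their translation. Of 50 tested large subunit mRNAs 38 were lower and 3 higher, with a median of -2.70, and of 32 small subunit mRNAs 27 were lower and 0 higher, with a median of -3.68. RPS29, on chromosome 14 from 50043390 to 50065408 (hg19, minus strand), had a bound RPKM of 1.98 against 186 in total RNA, at -6.69 (SE 0.06). Its bound RPKM was 26.3 in APEX2-NES, 22.3 in Connexin43-APEX2 and 14.6 in the negative control, with 127 to 184 in their total RNA, so that bound lay below total in all 4 lines and furthest in H2B-APEX2. RPS21 was at -5.98 (16.3 against 666), RPLP1, of the ribosomal stalk, at -5.95 (10.8 against 441), RPS19 at -5.61 and RPS15 at -5.12. RPS12 was at -3.19 (113 against 634), RPL41 at -2.81 (146 against 628) and RPL7A at -1.15 (251 against 339.8). RPL5, which binds 5S ribosomal RNA and lies on chromosome 1 from 93297582 to 93307481 (hg19, plus strand), went against its list at 1.13 (SE 0.01), with 499.9 in bound RNA against 139 in total RNA. Its place past 2-fold was lost under several settings: it was at 0.31 with the GC trend removed, 0.21 with TMM factors, 0.94 with centring on protein-coding genes, 0.34 to 0.54 with total RNA of another line and 0.42 with totals recomputed without small, ribosomal and mitochondrial RNA. In the other lines RPL5 bound RNA was at 86.4 against 186 in total RNA in APEX2-NES, 111 against 211 in Connexin43-APEX2 and 56.0 against 220 in the negative control. The other two that were higher were RPL22 at 1.03 and RPL36AL, which was listed at 0 in total RNA. Ribosomal protein genes have many processed pseudogenes, and reads can be split among the copies.

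The starts of TOP genes are shown because mRNAs with much the same start differed widely in bound RNA. They are the RefSeq starts on GRCh38.p14, 5 bases before the start and 20 from it, with the run of C and T that begins with a C at the start in capitals; RPLP0, RPL13A and the non-ribosomal genes were chosen after their values were seen.
RPS21: tgcttCCTTTCTCTCTCgcgcgcgg
RPLP1: gagagCCCCTTTCCTCagctgccgc
RPS12: gaggcCTCTTTCCCTgccgccgccg
RPLP0: gaggcCCTTCTCTCgccaggcgtcc
RPL13A: tcctcCTTTTCCaagcggctgccga
NPM1: gcgtcCTTTCCCTggtgtgattccg
EEF2: gcgttCTCTTCCgccgtcgtcgccg
EEF1A1: acgttCTTTTTCgcaacgggtttgc
SMC4: gcgccattttcgagtgaaggacccg

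RPLP0 was at -4.98 and RPL13A at -4.96, but NPM1 was at 2.05 with a run of 8, the translation elongation factor mRNA EEF2 at 0.03 and EEF1A1 at -0.28 with runs of 7. SMC4 has no run. A C at the start followed by pyrimidines to a run of at least 5 was found, on the transcribed strand only, at 4.07% of 35116 RefSeq starts and in 238 of 2301 tested protein-coding genes that could be matched. Of 66 matched ribosomal protein genes 47 had the run, with a median difference of -3.29, and the 19 without it had a median of -2.40. Outside the ribosomal proteins the 191 genes with the run had a median of 0.11 with 32 higher and 49 lower, and the 2044 without it 0.23 with 340 higher and 440 lower. Translation factor mRNAs as a list had 13 of 35 tested members higher and 7 lower, with a median of 0.39; PABPC1, the poly(A)-binding protein, named after its value was seen, was at 1.19 and EIF5A, an elongation factor, at -1.74.

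Respiratory chain and glycolytic enzyme mRNAs were mostly low. Nuclear-encoded respiratory chain mRNAs had 45 of 73 tested members lower and 4 higher, with a median of -1.6. COX8A, a subunit of cytochrome c oxidase, had a bound RPKM of 5.60 against 168 in total RNA, at -5.39 (SE 0.11), and NDUFB11, of complex I, was at -4.99 (5.66 against 128). ROMO1, a small mitochondrial membrane protein, at -5.23 (4.23 against 119) and TCEB2, elongin B, at -5.42 (5.58 against 171) stood beside them among the 10 lowest. ATP5B, the catalytic subunit of ATP synthase, was at -1.68 and NDUFS5 at -0.22. The 4 higher members were NDUFA5 and NDUFS6, each at 1.15, UQCRB at 1.12 and NDUFS1, which was listed at 0 in total RNA. Glycolytic enzyme mRNAs had 8 of 12 lower and 0 higher, with a median of -1.30. GAPDH, on chromosome 12 from 6643093 to 6647537 (hg19, plus strand), had 22.6 in bound RNA against 322 in total RNA, at -4.49 (SE 0.02), and bound RNA of the other lines held 101 to 131. ENO1 was at -2.60, and LDHB was at -0.19 with 149 against 103. Mitochondrial ribosomal protein mRNAs had 15 of 53 lower and 7 higher, with a median of -0.28, and proteasome mRNAs 8 of 27 lower and 3 higher, with a median of -0.36; the higher ones were PSMC1 (1.73), PSMD12 (1.33) and PSMD1 (1.24), all of the regulatory particle, while PSMB4, of the catalytic core, was at -2.69. In both of these lists the share that was lower lay between the 24.3% among protein-coding genes and the 33.2% among all genes.

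Actin and tubulin cytoskeleton mRNAs had 12 of 26 tested members lower and 1 higher, with a median of -0.76; the higher one, TUBA1B, was listed at 0 in total RNA. ACTB, beta-actin, had 39.1 in bound RNA against 71.8 in total RNA, at -1.57, while in every other line its bound RPKM was the higher one, at 88.4 against 39.5 in APEX2-NES, 67.8 against 39.3 in Connexin43-APEX2 and 116 against 65.4 in the negative control. PFN1, which encodes profilin, was at -3.08 and TMSB10, a thymosin that holds actin monomers, at -3.91. Plasma membrane protein mRNAs had 4 of 10 lower and 1 higher. BSG, the cell surface protein basigin, was at -2.85, the tetraspanins CD151 and CD81 were at -2.65 and -2.43 and SLC3A2, an amino acid transporter chain, at -1.15, while the integrin ITGB1 was at 1.73. Histone mRNAs made in S phase, which lack poly(A) tails, had 14 of 28 tested members lower and 8 higher, with a median of -0.97, or -1.36 over the 22 with reads in both libraries. HIST2H2AC was at -2.53 (42.8 against 154) and HIST1H1E, a linker histone, at 1.19 (169 against 44.3). Histone genes come in near-identical copies whose reads can be split, and the total RPKM of HIST1H1E ranged over 44.3 in H2B-APEX2, 27.1 in APEX2-NES, 22.1 in Connexin43-APEX2 and 0 in the negative control.

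Among long noncoding RNAs, MALAT1, a nuclear speckle RNA on chromosome 11 from 65265233 to 65271080 (hg19, plus strand), was the highest by the rule. Its RPKM was 169.7 in bound RNA against 6.57 in total RNA, at 3.78 (SE 0.03). In APEX2-NES it was 34.0 against 5.97, in Connexin43-APEX2 37.5 against 10.0 and in the negative control 43.5 against 6.14. Bound RNA thus exceeded total RNA in every line, the control included, and with the control's difference taken off MALAT1 was at 1.81. NEAT1, which builds paraspeckles, stayed below the level filter with 0.903 in bound RNA and 0.188 in total RNA. UGDH-AS1 was at 2.65 and LINC00504 at 2.27, but in the negative control they were at 3.16 and 3.05. LINC00657, also known as NORAD, a regulator of Pumilio proteins, was at 1.13 and 1.14 in the control, and JPX at 0.53. Long noncoding hosts of snoRNAs, whose spliced transcripts are short-lived in the cytoplasm, had 11 of 17 tested members lower and 0 higher, with a median of -1.09; GAS5 was at -1.51, SNHG5 at -2.20, ZFAS1 at -2.81 and SNHG6 at 0.38. SSTR5-AS1 was lowest at -8.19 (SE 0.05), with 2.77 in bound RNA against 669 in total RNA, and LINC00910 was at -3.82; both were also low in the other 3 lines, from -5.08 to -2.43.

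Gene by gene, most tested structured small RNAs of the nucleus and of the signal recognition particle were low in H2B-APEX2 bound RNA. RN7SK, which holds the transcription elongation factor P-TEFb in an inactive complex, lies on chromosome 6 from 52860418 to 52860748 (hg19, plus strand). It had a bound RPKM of 7023 against 137535 in total RNA, at -5.01 (SE 0.00). Its differences were -3.49 in APEX2-NES, -3.68 in Connexin43-APEX2 and -3.27 in the negative control. RPPH1, the RNA of RNase P, was at -7.26 (818 against 76625), RMRP, of RNase MRP, at -7.14 (422 against 36318) and TERC, the telomerase RNA, at -4.28 (17.5 against 218). These 4 had a median of -6.07 in H2B-APEX2, below that of APEX2-NES (-3.46), Connexin43-APEX2 (-3.75) and the negative control (-3.51). All 26 tested box H/ACA snoRNAs, of 392 listed, were lower, with a median of -2.14, and SNORA53 had 1.69 against 70.7. Spliceosomal small nuclear RNAs had 15 of 20 lower and 1 higher, with a median of -1.88; the higher one, the U1 copy RNU1-3, was listed at 0 in total RNA. The U1 copies RNU1-2, RNU1-4 and RNVU1-18 were all at -1.52, and RNU1-1, named after its value was seen, was listed at 0 in bound RNA. As a share of reads, the small nuclear RNA type took 1.12% of the bound library and 0.666% of the total library. The spliceosomal list had a summed RPKM of 9008 in bound RNA and 14578 in total RNA. Reads can be split among U1 copies, so values of single copies do not settle their joint level. Cajal body RNAs, the guides that modify spliceosomal RNAs, had 10 of 14 lower and 1 higher, with SCARNA2 at -2.92, SCARNA13 at -5.64, SCARNA7 at 0.66 and the higher one, SCARNA18, at 1.67. Over members tested in every line, H/ACA snoRNAs were at -2.88 in H2B-APEX2 and -3.23 in Connexin43-APEX2. Spliceosomal RNAs were at -1.88 and -2.82, and Cajal body RNAs at -3.12 and -3.00, in the same order. Medians of these lists in APEX2-NES and the negative control lay above those in H2B-APEX2. Box C/D snoRNAs had 7 of 11 tested members lower and 1 higher, of 333 listed, with a median of -1.69; the higher one was SNORD3B-2, a U3 copy listed at 0 in total RNA. The 7SL copies RN7SL4P and RN7SL5P were at -8.18 and -8.05, and RN7SL1 at -5.33; RN7SL3 was listed at 0 in total RNA, and the copies of 7SL and of U3 (SNORD3A at 0.36, SNORD3C at -7.29) cannot be told apart with certainty.

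Mitochondrial transcripts could not be compared as RNA. All 10 mitochondrially encoded mRNAs that passed the filter were listed at 0 in bound RNA, among them MT-CYB (32.8 in total RNA), MT-CO3 (147) and MT-ATP6 (97.1). Footprints from the same line did hold them, with 22913 footprint reads on MT-CYB, 9076 on MT-ATP6 and 6744 on MT-CO3. In bound RNA the nuclear copies of mitochondrial genes were high instead. The MTRNR2L genes, nuclear copies of the large mitochondrial ribosomal RNA, took 9.16% of bound reads and 0.0861% of total reads. MTRNR2L12 was at 5.85 (8227 against 85.7), MTRNR2L1 at 6.22 and MTRNR2L8 at 3.52, and the pseudogene MTATP6P1, named after its value was seen, was at 5.67 (4067 against 47.7). They were also high in the negative control, at 5.52 for MTRNR2L12 and 5.76 for MTATP6P1. With pseudogenes and all mitochondrial genes and copies left out, a step added after the data were seen, 507 of 3730 genes were higher and 1136 lower.

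The negative control shows which of these differences a capture without any APEX2 also gave. Its bound RNA had 20.1% of 6161 genes higher and 33.2% lower than its total RNA, APEX2-NES 22.9% and 29.2%, and Connexin43-APEX2 20.0% and 29.3%. Of 702 protein-coding genes lower in H2B-APEX2 and tested in both lines, 541 (77.1%) were also lower in the control, which is 64.3% of those lower there; of all 2316 genes tested in both, 842 (36.4%) were lower in the control. Of 376 higher in H2B-APEX2, 73 (19.4%) were higher in the control, 36.0% of those higher there, beside 203 (8.77%) of all 2316. In APEX2-NES the shares of the H2B-APEX2 genes were 24.6% of the higher and 43.8% of the lower, beside 12.3% and 21.4% of all 2116 genes tested in both. In Connexin43-APEX2 they were 30.1% and 33.7%, beside 14.4% and 15.8% of all 1842.

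Small subunit ribosomal protein mRNAs were at -3.68 in H2B-APEX2 and at -3.70 in the negative control, and the respiratory chain list at -1.6 and -2.42. After the control's difference was taken off, which made 25.4% of 5728 genes higher and 20.5% lower, the medians were 0.13 for small and 0.52 for large subunit ribosomal protein mRNAs and 0.43 for the respiratory chain. RPS29 (-2.97), RPLP1 (-1.99), COX8A (-2.51) and GAPDH (-2.18) stayed low, and RPL7A (2.23), LDHB (2.66) and EEF1A1 (2.35) turned high. Several lists that were high in H2B-APEX2 lay lower in the control: hnRNP mRNAs at 1.43 against 0.22, high mobility group mRNAs at 1.14 against -0.63, nucleolar protein mRNAs at 1.14 against 0.14 and chaperones at 0.96 against -0.28. These medians are over the members tested in each line. Other lists did not lie much lower in the control. Stress response mRNAs were at 0.86 against 0.88 in the control, or at 1.04 against 1.81 over the 5 members tested in every line. Zinc finger mRNAs were at 0.72 against 0.62 and nuclear long noncoding RNAs at 0.83 against 0.57. The 2 immediate early mRNAs tested in every line were at 1.17 against 1.35. Some lists were low in H2B-APEX2 and not in the control: actin and tubulin mRNAs at -0.76 against 0.15, histone mRNAs at -0.97 against 1.17 and box C/D snoRNAs at -1.69 against 2.49. Over the 7 box C/D snoRNAs tested in every line the medians were -2.27 in H2B-APEX2, -0.79 in APEX2-NES, -1.33 in Connexin43-APEX2 and 0.08 in the negative control. With the control taken off, 12 of 24 hnRNP mRNAs were higher and 1 lower, and 8 of 13 condensin and cohesin mRNAs were higher and 0 lower. HNRNPA1 was then at 4.06, NPM1 at 3.51 and SMC4 at 2.72. Chromatin regulators were then at 0.35, with 5 of 18 higher and 3 lower, and zinc finger mRNAs at -0.21, with 6 of 21 higher and 3 lower. Actin and tubulin mRNAs were at -1.02 and histone mRNAs at -1.58 after the same step. The histone value again includes HIST1H1E (-5.80) and HIST1H4C (-8.81), which had 0 reads in the control's total RNA.

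**Figure D3:**
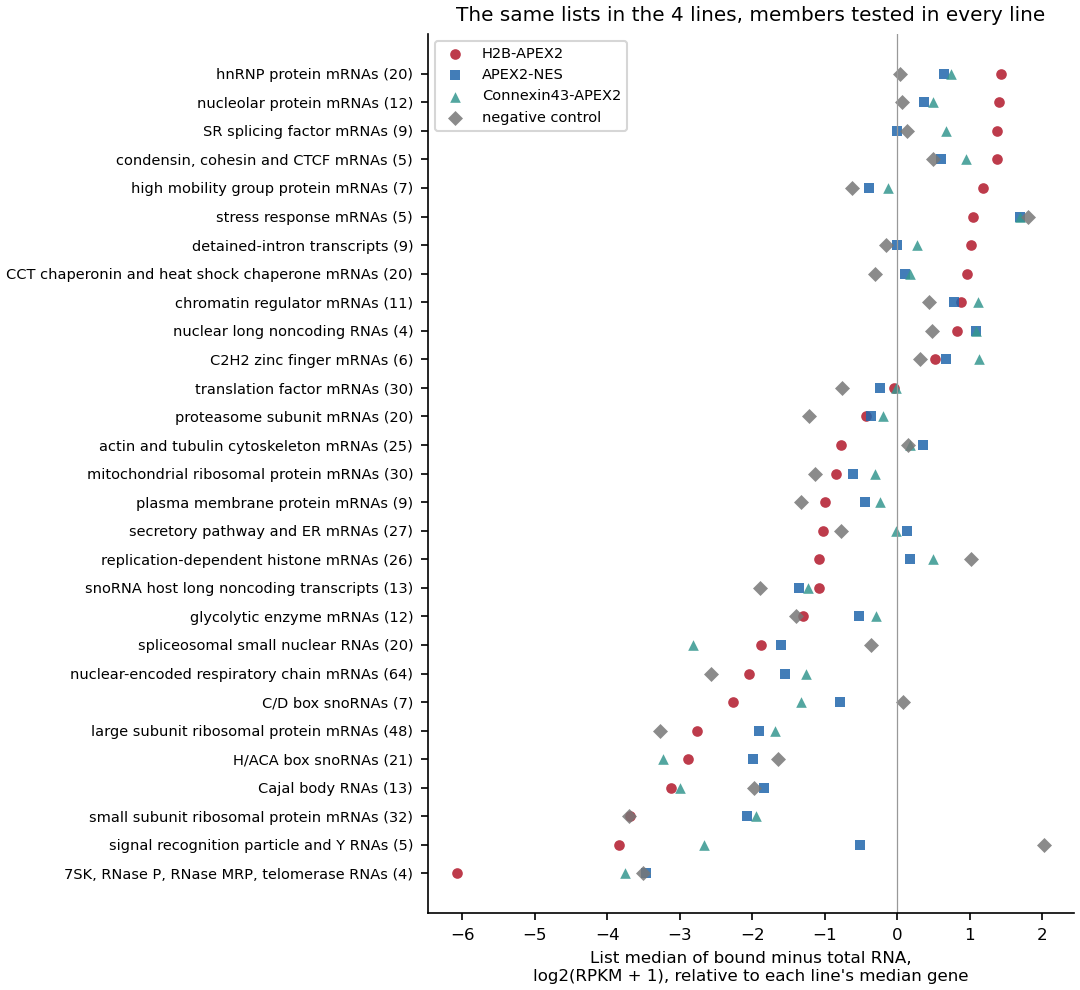
Each row is a gene list and each symbol the median of bound minus total RNA (log2 scale, relative to the line's median gene) in 1 of the 4 lines, over the members tested in every line, whose number stands in brackets. H2B-APEX2 (circles) lies to the right of the other lines for hnRNP, nucleolar and high mobility group mRNAs and near the negative control (diamonds) for ribosomal protein mRNAs.

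The difference between bound and total RNA also moved with the base composition of the transcript, and it fell with GC content in H2B-APEX2, with no such fall in APEX2-NES or Connexin43-APEX2 and a slight one in the negative control. In 5 equal groups of protein-coding genes from low to high GC content of the longest GENCODE transcript, the median differences in H2B-APEX2 were 0.70, 0.54, 0.25, -0.48 and -1.32. They ran only between -0.01 and 0.37 in APEX2-NES, 0.04 and 0.49 in Connexin43-APEX2 and -0.15 and 0.23 in the negative control. Across 2961 genes of these 2 libraries, which are not independent of each other, Pearson's r with GC content was -0.52 and Spearman's rho -0.56; they were 0.09 and 0.11 in APEX2-NES, 0.15 and 0.18 in Connexin43-APEX2 and -0.10 and -0.08 in the negative control. Genes that were higher had a median GC content of 42.0%, and genes that were lower 56.1%. Transcript length moved with the difference in all 4 lines: from the shortest to the longest of 5 equal groups, the medians were -1.10, -0.35, 0.22, 0.45 and 0.62 in H2B-APEX2, and the shortest and longest groups stood at -0.64 and 0.71 in APEX2-NES, -0.47 and 0.57 in Connexin43-APEX2 and -1.22 and 0.51 in the negative control. Among long transcripts of low GC content 157 of 505 were higher and 7 lower, and among short ones of high GC content 26 of 502 were higher and 332 lower.

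Base composition bears on several of the lists above. The GC trend removed here was a straight line fitted over all 4890 tested genes with a GC value. Small RNAs and pseudogenes thus entered the fit beside protein-coding genes. Condensin and cohesin mRNAs had a median GC content of 39.2% and their median difference was 0.71 once the GC trend was removed, beside 1.35 before; hnRNP mRNAs (42.6%) were at 1.07 beside 1.43, high mobility group mRNAs at 0.70 beside 1.14 and SR mRNAs at 0.31 beside 0.85. Nucleolar protein mRNAs were at 1.39, chromatin regulators at 0.94 and ribosomal protein mRNAs at -2.46 for the large and -3.34 for the small subunit. Histone mRNAs, at 57.3% GC, were at 0.08, and actin and tubulin mRNAs, at 52.7%, at -0.34. Among single genes, JUND stood at 3.07 with the trend removed beside 0.74 before, HNRNPA1 at 2.80 beside 3.07, SMC4 at 2.37 beside 3.20 and MALAT1 at 3.25 beside 3.78. RPS29 was at -6.98 beside -6.69 and GAPDH at -3.22 beside -4.49, while BSG was at -1.31 beside -2.85. Among the genes past 2-fold before and not after were RPL5 (0.31), NHP2 (-0.08), SCARNA2 (-0.97), ACTB (-0.66), HNRNPH1 (0.63), HMGA1 (-0.31), NCAPG (0.70), SRSF6 (0.78), EIF5A (-0.61), HMGN3 (0.80), DDOST (-0.46), RPL7A (-0.69), LINC00657 (0.72), HIST2H2AC (-0.88) and the U1 copies (-0.70).

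**Figure D4:**
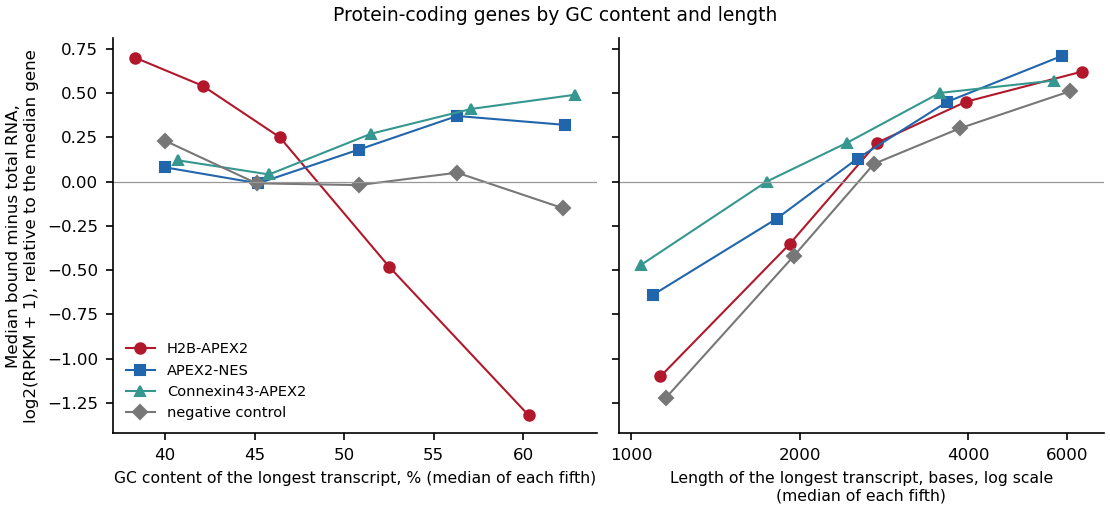
Median bound minus total RNA (log2 scale, relative to the median gene) of protein-coding genes in 5 equal groups by GC content (left) and by length on a log axis (right) of the longest transcript, for the 4 lines. In H2B-APEX2 the median is 0.70 in the group lowest in GC and -1.32 in the highest, while the length trend is shared by all lines.

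Footprints, the RNA pieces protected by crosslinked proteins, come from separate libraries of the same lines and were not used to choose or class the genes. Of protein-coding genes found in the footprint tables, 91.6% of those higher in H2B-APEX2 bound RNA, 90.8% of those between and 82.1% of those lower had a footprint cluster in H2B-APEX2 cells, with medians of 184, 110 and 34.0 reads per gene. Relative to all genes compared, H2B-APEX2 footprints of the higher genes exceeded those of APEX2-NES by a median log2 ratio of 0.64 (437 genes), and those of the lower genes were at -1.31 (570 genes). Against Connexin43-APEX2 the medians were 0.58 and -1.32, and against the negative control 0.41 and -0.87. The higher and lower genes thus took the same order in these medians, in which GC content was not taken into account. Depth differed between the lines, with 1741844 cluster reads in H2B-APEX2, 575990 in APEX2-NES, 270633 in Connexin43-APEX2 and 185487 in the negative control. HNRNPA1 had 1332 footprint reads in H2B-APEX2, of which 1175 lay in the 3′ untranslated region. Per 100000 cluster reads that is 76.5, against 17.9 in APEX2-NES, 22.9 in Connexin43-APEX2 and 43.1 in the negative control. SMC4 had 1637 reads, 672 of them in coding sequence and 350 in introns, or 94.0 per 100000 against 18.4, 39.9 and 36.7 in the same order of lines. Both were thus higher in H2B-APEX2 at equal depth, and least so against the control for HNRNPA1. Footprints of other high genes were mixed at equal depth. HNRNPA3 (51.2 against 21.9, 32.1 and 21.6) and HNRNPH1 (141 against 41.3, 70.9 and 104) went the same way. NPM1 was at 21.2 against 43.7 in the control, and HNRNPA2B1 at 109.5 against 166 there. CANX was at 66.3 against 91.7, 81.7 and 140.2, below each other line. ACTB had 68 reads, or 3.90 per 100000 against 111, 68.0 and 44.7. RPL5, whose bound RNA was higher, had 224 reads, or 12.9 per 100000 against 59.0, 90.5 and 39.9, so that its footprints were lower in H2B-APEX2 than in each other line.

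Introns held 39.6% of footprint clusters in H2B-APEX2 (95% Wilson interval 39.3 to 39.8, counting error only), against 5.58% in APEX2-NES, 9.47% in Connexin43-APEX2 and 14.1% in the negative control. By class of bound RNA, introns held 49.2% of clusters in the higher genes (48.3 to 50.1, the same kind of interval), 43.9% in those between (43.3 to 44.5) and 51.4% in the lower (49.9 to 52.9). Among genes with at least 10 footprint reads the median share of reads in introns was 17.4% for the higher, 17.6% for the intermediate and 19.2% for the lower genes. The share in 3′ untranslated regions had medians of 20%, 22.2% and 3.48% in the same order.

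**Figure D5:**
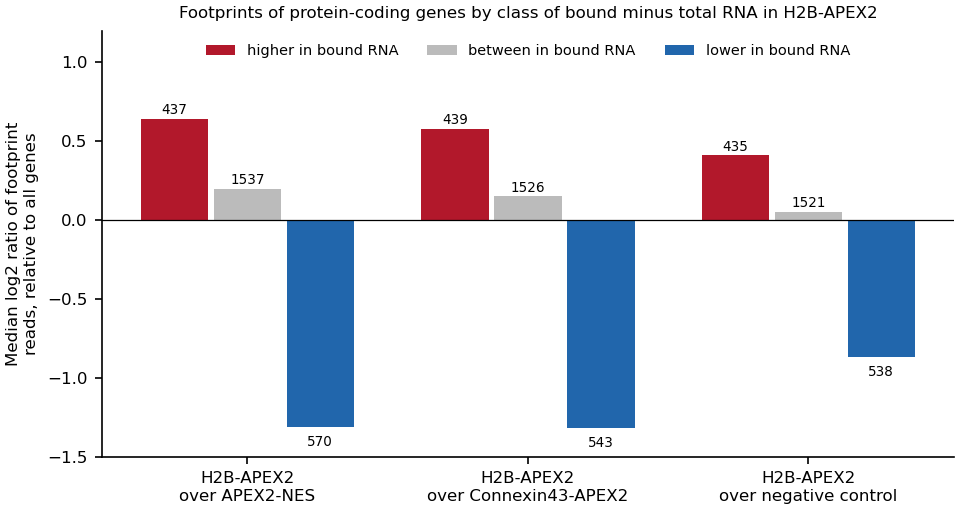
Bars give the median log2 ratio of footprint reads of H2B-APEX2 over each other line, relative to all genes compared, for protein-coding genes that were higher, between or lower in H2B-APEX2 bound RNA; numbers of genes stand at the bars. Higher genes are at 0.41 to 0.64 and lower genes at -1.32 to -0.87.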

How the data were processed

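Streptavidin-bound RNA, total RNA and footprints of 4 HEK293 T-REx lines gave 12 samples, 1 per group; the bound and total RNA of H2B-APEX2 are compared here. The submitters' processing notes name hg19, bcl2fastq 2.17.1 and TopHat; the counter and annotation are not given in the sources used here. Expected counts per gene were deposited with 0.001 added, and RPKM values were computed by the authors from the listed length, with 1e-07 for 0, per the file headers. Footprint clusters and reads are deposited counts. Start positions in the files count from 0 and are given here counted from 1.

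Values are log2(RPKM + 1), a scale that understates changes of low genes, bound minus total, centred on the median of genes with mean RPKM of at least 1; at least 2-fold from that median counts as higher or lower. Sampling SE were derived from both expected counts with the delta method. GC content and length are those of the longest transcript in GENCODE 29. The size rule was run on simulated Poisson counts with a shared rate per gene and 200 changed genes. That setting lacks the differences in composition and depletion between the real libraries, so it does not show how the rule performs on them. Named were, among genes with at least 50 reads in both libraries and no pseudogenes, the 10 highest and 10 lowest protein-coding genes, 5 and 5 long noncoding and small RNAs, the 3 most abundant members of each list, MALAT1 and NEAT1; members of a count of 5 or fewer were named after their values were seen. Some genes that the rule names are not reported here. The members and lists were chosen with earlier results of these data known. Levels of genes on the Y chromosome and of the X inactivation transcript are not reported. Bound columns of another table, which holds no H2B-APEX2 column, were not used. Python 3.11.15, pandas 2.3.3, R 4.3.3 and edgeR 4.0.16 (for TMM factors only) were used. Alternatives were other scalings, pseudocounts, filters, total RNA of the other lines, removal of the GC trend and of the control; 2 were added after the data were seen.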

Additional observations from a re-analysis of the deposited data

Results flagged for a closer look

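In all, 10 results lay on one side of the median gene in H2B-APEX2 and on the other side in each of the other 3 lines, counting named genes past 2-fold in H2B-APEX2 with reads in every library, and list medians over members tested in every line. The difference between lines was not tested in any of them, since each group holds 1 sample. RPL5 was at 1.13 in H2B-APEX2, against -1.52 in APEX2-NES, -1.11 in Connexin43-APEX2 and -2.62 in the negative control, and it was below 2-fold in H2B-APEX2 under several settings. HMGN3 was at 1.02, against -1.77, -1.38 and -1.67 in the same order of lines, NPM1 at 2.05, against -0.66, -0.12 and -1.46, and ACTB at -1.57, against 0.73, 0.59 and 0.15. MRPL47, of the mitochondrial ribosome, was at 1.06, against -0.91, -0.68 and -1.34, and EPCAM at 1.18, against -1.16, -0.15 and -2.28. The 7 high mobility group protein mRNAs tested in every line had a median of 1.19, against -0.39, -0.13 and -0.63. The 26 histone mRNAs had -1.08, against 0.18, 0.49 and 1.02, and the 25 actin and tubulin mRNAs -0.78, against 0.36, 0.18 and 0.15. Reads in every library were not required of list members. Of all 28 histone mRNAs tested in H2B-APEX2, 6 were at 0 reads in one of its libraries. HIST1H1E and HIST1H4C were at 0 in total RNA of the negative control. The 10 mitochondrially encoded mRNAs had -5.29, against 2.85, 2.65 and 10.40; the bound library of H2B-APEX2 lists all of them at 0, and the total library of the negative control had reads on 4 of the 37 mitochondrial genes.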

How the results depend on the processing

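No paired analysis was possible because each group holds 1 sample and the labels give no replicate numbers. In the main setting 964 of 5143 tested genes were higher and 1707 lower. Of the same 5143 genes, centring on protein-coding genes gave 749 and 1826, and TMM factors gave 998 and 2195. Total RNA of another line gave 875 to 996 higher and 1611 to 1793 lower, of 5056 to 5278 tested. The higher count became 2194 with no centring, 1685 with a pseudocount of 0.1 and 423 with one of 5, again of 5143. Other settings changed the tested genes as well, so their counts cannot be set directly against these. The higher count was 2362 of 34338 with no filter and 1454 of 5728 with the negative control taken off. It was 1923 of 12171 with totals recomputed without small, ribosomal and mitochondrial RNA. The lower count became 1080 of 5143 with a pseudocount of 5, 706 of 2001 with a mean RPKM of at least 5 and 3083 of 12171 with the recomputed totals. There were 2 alternatives added after the data were seen. The 1803 genes with whole read values in both libraries gave 579 higher and 693 lower. Leaving out pseudogenes and mitochondrial genes and copies gave 507 and 1136 of 3730. With the GC trend removed 948 of 4890 were higher, 612 of them the same genes, and 1264 lower, 1195 of them the same.

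Of 17 lists with a median past 2-fold, all kept their sign with the GC trend removed, with TMM factors and with total RNA of APEX2-NES or Connexin43-APEX2. Fewer stayed past 2-fold: 13 with the GC trend removed or no centring, and 9 with a pseudocount of 5 or no filter. With a mean RPKM of at least 5, 11 of 16 did. With the control taken off, 13 of the 17 kept their sign. That step reversed the snoRNA hosts (0.49), both ribosomal lists (0.52 and 0.13) and the respiratory chain (0.43), and the box C/D list was at 0.03 with no filter. It also reversed GAS5 (0.99), SNHG5 (1.63), ZFAS1 (0.32), NHP2 (1.86), HIST1H1E (-5.80), PSMD8 (0.16), PSMB4 (0.18), RPS12 (0.55), RPL41 (0.44), RPL7A (2.23), MTATP6P1 (-0.08), MTRNR2L8 (-0.51), DDOST (0.23), UGDH-AS1 (-0.50), LINC00504 (-0.77), LINC00657 (-0.01), EIF5A (0.50) and ATP5B (0.78). With a mean RPKM of at least 5, which moved the median gene, NHP2 was at 0.04 and RPL7A at 0.07. With another line's total RNA, RPS2 was at 6.20 (APEX2-NES), HIST1H4C at 4.25 (negative control), SNORD3C at 5.40 (Connexin43-APEX2) and RN7SL2 at 9.25 (APEX2-NES) and 9.53 (negative control). The cause was not tested where none is named. Counting SE were small for most named genes, so that depth limits chiefly the genes near the filter.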

Other observations

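Stress and signalling transcripts are few among the tested genes, and ATF4 and JUN were higher in bound RNA of all 4 lines. ATF4, the transcription factor of the integrated stress response, had a bound RPKM of 30.2 against 2.79 in total RNA in H2B-APEX2, at 2.33, and was at 1.69 in APEX2-NES, 1.79 in Connexin43-APEX2 and 1.81 in the negative control. JUN, a subunit of the AP-1 transcription factor, was at 1.61, against 2.08, 1.99 and 1.44 in the same order of lines, and JUND at 0.74. GADD45A, a growth arrest gene induced by DNA damage, was at 2.11 in H2B-APEX2 (10.3 against 0.598) and at -0.12, 0.91 and -0.62 in the other lines. ASNS, asparagine synthetase, was at -0.32. Of 18 listed stress genes 6 were tested, 3 of them (ATF4, GADD45A and HSPA1B at 1.04) higher and 0 lower, and of 21 immediate early genes 2 were tested.

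The fibroblast collagen genes COL1A1, COL1A2 and COL3A1, listed as markers of another cell type, had an RPKM of 0.305, 0.341 and 0.133 in H2B-APEX2 bound RNA and 0.330, 0.647 and 0.264 in its total RNA. In bound RNA of the negative control they stood at 9.27, 16.9 and 6.11.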
